A study of Mus musculus with 8 samples.

Results

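The genes described here are antiviral effectors and nucleic acid sensors: helicases and kinases that recognise foreign RNA or DNA, the ISG15 conjugation system, proteins that block steps of viral replication, nuclear body genes, and their interferon-induced partners. They were chosen by name, 36 genes in all, and 35 of them were listed in the deposited tables, among 18125 gene identifiers over all libraries; Rnf213 was not analysed here. The study measured RNA of mouse macrophages on a C57BL/6 background that were wild-type or carried the genotype Slc6a8-/y, a loss of the X-linked creatine transporter (called knockout here), and its stated subject is the transcriptome of macrophages that lack creatine during polarization. Peritoneal macrophages came from mice injected with thioglycollate (1 mL at 4%) 3 to 4 days before, and were either left untreated or kept in IFN-gamma for 12 hours at 10 ng/mL. The bone marrow-derived cells grew in 10% M-CSF over 5 days and were then left untreated or kept in IL-4 for 6 hours at 10 ng/mL. Each of the 8 combinations of cell type, genotype and treatment had 1 library, so no comparison of knockout with wild-type within a treatment has a replicate check, and none is tested. The labels do not say whether libraries of a genotype share an animal, nor the ages of the mice, nor whether animals were pooled.

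These genes are best known as targets of type I interferon. Virus or stray nucleic acid is recognised by sensors such as RIG-I and MDA5, which lead to interferon production, and interferon in turn brings a complex that holds STAT2 and IRF9 onto interferon-stimulated response elements in the promoters of these same genes. IFN-gamma acts mainly at gamma-activated sites and induces many of them as well, usually together with class II, guanylate-binding protein and immunoproteasome genes, while IL-4 acts through STAT6 and is not a classical inducer of the antiviral genes. In macrophages the products make the cell harder to infect and more ready to sense infection.

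The 4 peritoneal libraries held 10812678 to 11065427 expected counts and the 4 bone marrow-derived libraries 20553654 to 21221526, so counting error is smaller in the second set. Slc6a8 was at 163.5 and 39.5 FPKM in the wild-type peritoneal libraries and at 0.73 and 0.18 in the knockout ones, and at 97.3 and 87.9 against 1.71 and 1.15 in bone marrow-derived cells, as the genotype labels state. All 8 macrophage markers were detected in all 8 libraries. Libraries are bulk samples, so fewer cells of a type and less RNA per cell cannot be told apart. FPKM values are listed in 1 order throughout: wild-type untreated, wild-type treated, knockout untreated, knockout treated. Log2 differences are of FPKM + 1, a scale that understates the change of weakly expressed genes, and count ratios are of expected counts divided by each library's total, with 95% exact (Clopper-Pearson) intervals that cover counting error only.

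After IFN-gamma, 34 of the 35 genes were higher in knockout than in wild-type peritoneal macrophages, by a median log2 difference of 1.06. Of the 10670 genes that averaged 1 FPKM or more, 4921 were higher in knockout cells, and the median over all 10670 was -0.02. The difference was at least 2-fold for 19 members, against 1.56% of those 10670 genes. It was at least 1.5-fold for 27 members, against 4.05%. No member was 2-fold lower in knockout cells, against 0.89% of genes. The count interval lay above 1 for 34 members, against 17.4% of genes, and below 1 for 0, against 2444 of the 10670 genes. Counting error alone was thus often exceeded between 2 single libraries, in both directions. Before treatment the genotypes were close, with a median difference of 0.08. Isg15 was the 1 member at least 2-fold (background 0.356%) and also the 1 member at least 1.5-fold higher (1.18%). Isg15 no longer reached 2-fold at a pseudocount of 5, with median scaling or with TMM-scaled CPM. The count interval lay above 1 for 8 members (19.9%) and below 1 for 4 (12.8%). After IL-4, all 35 members were higher in knockout than in wild-type bone marrow-derived macrophages, by a median of 0.70 against 0.01 over 10906 genes. Of those 10906 genes, 5758 were higher in knockout cells. The members' values ranged from 0.13 for Ifi27l2a to 1.53 for Isg15. In that comparison 22 members were at least 1.5-fold higher (background 1.2%), 6 at least 2-fold higher (0.385%), and 35 had a count interval above 1 (15.9%). The 6 became 11 at a pseudocount of 0.1 and 2 at a pseudocount of 5. In untreated bone marrow-derived cells the median was 0.06, none of the 35 was 1.5-fold higher (0.495%), and the count interval lay above 1 for 7 (13.8%) and below 1 for 3 (15.9%). The knockout library treated with IFN-gamma was the highest of the 4 peritoneal libraries for 34 members, and the knockout library treated with IL-4 was the highest of the 4 bone marrow-derived libraries for 32. The shares of all genes that were highest in these libraries were not computed.

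**Figure D1:**
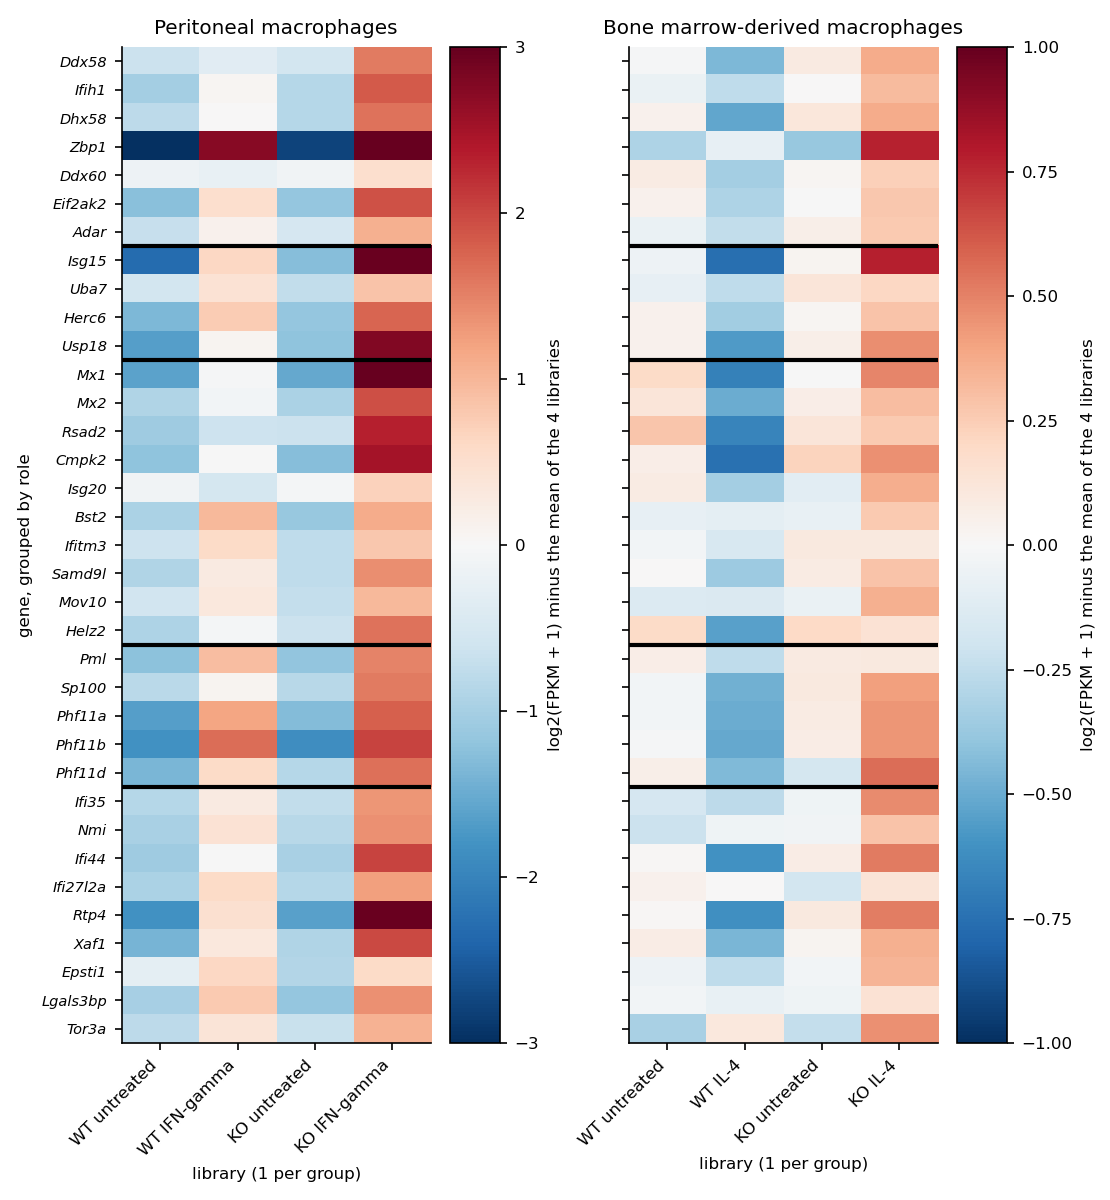
Level of each member (rows, grouped by role and divided by black lines) in the 4 peritoneal libraries (left) and the 4 bone marrow-derived libraries (right), as log2(FPKM + 1) minus the mean of the 4 libraries of that cell type; the 2 colour scales differ and saturate at their ends. The knockout IFN-gamma column is the highest of its panel for 34 of 35 genes, the knockout IL-4 column for 32, and the wild-type IL-4 column is the lowest for 31. Shares over all genes were not computed for these counts.

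The filter on low values bears on a few members. A mean of at least 1 FPKM over the 4 peritoneal libraries was reached by 34 of the 35, Ddx60 being the one below it, and Mx1, Mx2 and Ifi44 reached it largely through the knockout library treated with IFN-gamma. Counts of members are therefore given over all 35 listed genes. Expected counts that are not whole (by more than 0.005) mark genes whose fragments were divided with other genes: they stood in all 8 libraries for Ddx58, Eif2ak2, Isg15, Ifitm3, Sp100, Phf11a and Xaf1, and in some for Phf11b, Phf11d, Mx1, Mx2, Ifi44, Ifi27l2a and, in a single library, Ifih1. How these counts were divided is uncertain, also among the 3 Phf11 genes, which lie close together on chromosome 14. Eif2ak2, Adar, Pml, Ifi27l2a and Rtp4 overlap another listed gene, and no source used here says whether the counting took strand into account.

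**Figure D2:**
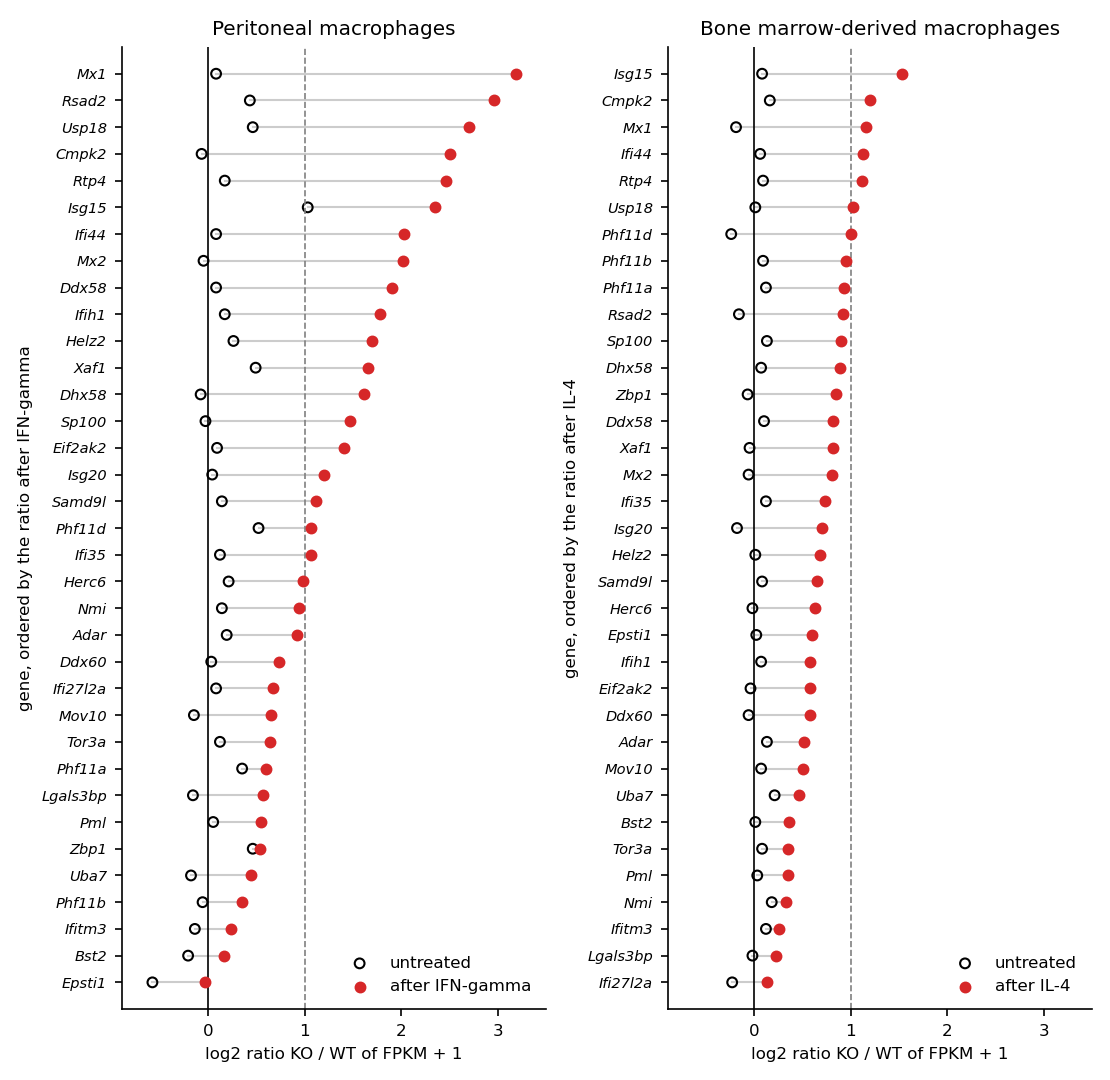
Log2 ratio of FPKM + 1, knockout over wild-type, for each member in peritoneal macrophages (left) and bone marrow-derived macrophages (right), each point from 1 pair of libraries; open circles are untreated, filled circles cytokine-treated, and the dashed line marks 2-fold. After IFN-gamma the points run from -0.04 for Epsti1 to 3.19 for Mx1, and after IL-4 from 0.13 to 1.53, while the untreated points lie around 0.

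The promoters of 4 members are shown because they mark the ends of the IFN-gamma comparison: Rsad2 and Isg15 were the members furthest above wild-type among those with a response element match, and Bst2 and Ifitm3 were the closest to wild-type among those induced at least 2-fold in wild-type cells. Each sequence is the 250 bases before the annotated start in the RefSeq promoter table (build GRCm38.p6), 5′ to 3′ on the gene's own strand, with matches to the letters GAAANNGAAA on either strand in capitals, overlapping matches run together. Rsad2 lies on the minus strand at chr12:26456453-26456702, Isg15 on the minus strand at chr4:156200819-156201068, Bst2 on the minus strand at chr8:71537473-71537722 and Ifitm3 on the minus strand at chr7:141010745-141010994.
Rsad2: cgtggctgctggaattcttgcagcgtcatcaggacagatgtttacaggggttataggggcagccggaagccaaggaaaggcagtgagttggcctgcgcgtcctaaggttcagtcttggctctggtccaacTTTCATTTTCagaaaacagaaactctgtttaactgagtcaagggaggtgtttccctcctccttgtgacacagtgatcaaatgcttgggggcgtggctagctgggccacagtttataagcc
Isg15: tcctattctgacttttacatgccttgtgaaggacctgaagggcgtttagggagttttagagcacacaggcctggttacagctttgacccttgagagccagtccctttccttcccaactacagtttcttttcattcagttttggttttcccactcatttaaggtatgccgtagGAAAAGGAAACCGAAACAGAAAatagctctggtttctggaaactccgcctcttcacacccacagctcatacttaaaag
Bst2: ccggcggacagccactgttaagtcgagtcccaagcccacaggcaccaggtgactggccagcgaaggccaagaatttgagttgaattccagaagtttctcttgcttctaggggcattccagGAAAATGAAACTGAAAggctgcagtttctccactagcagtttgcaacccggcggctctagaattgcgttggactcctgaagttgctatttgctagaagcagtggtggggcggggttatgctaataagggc
Ifitm3: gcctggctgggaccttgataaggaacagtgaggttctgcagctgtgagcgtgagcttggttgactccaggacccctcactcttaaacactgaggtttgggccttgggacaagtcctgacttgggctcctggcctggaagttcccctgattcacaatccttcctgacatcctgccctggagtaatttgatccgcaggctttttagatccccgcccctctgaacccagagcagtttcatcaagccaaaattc
Rsad2 held 1 match, 120 bases before the start, Isg15 held 3 overlapping matches beginning 78, 72 and 66 bases before it, and Bst2 held 2 overlapping matches beginning 130 and 124 bases before it. These letters are not in the Ifitm3 window. Of the 35 listed members, 27 had a promoter in the table, and 6 of these 27 (Ddx60, Isg15, Rsad2, Bst2, Phf11a and Phf11b) held a match, or 22.2%, against 3.26% of the 13885 genes of the files with a promoter there (2.72% of 17347 promoters). The gamma-activated site letters TTCNNNGAA were found on either strand in Eif2ak2, Isg20 and Bst2, 11.1% of the 27 members against 7.31% of genes (6.13% of promoters), and in Bst2 this match shares its last bases with the first response element match. The 6 members with a response element match differed between genotypes after IFN-gamma by a median log2 of 0.66 and from 0.16 to 2.96, and the 21 without one by a median of 1.06 and from -0.04 to 2.50. After IL-4 the medians were 0.92 with a match and 0.63 without, and in the wild-type response to IFN-gamma 2.38 and 1.11. The 8 members with no promoter in the table, Mx1, Usp18 and Rtp4 among them, had a median genotype difference of 1.82 after IFN-gamma.

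Among the sensors, all 7 were higher in knockout cells after IFN-gamma, 4 of them at least 2-fold. Ddx58, which encodes the RNA sensor RIG-I, was at 4.45, 5.65, 4.75 and 23.8 FPKM in peritoneal macrophages, a count ratio of knockout to wild-type after IFN-gamma of 4.22 (3.72 to 4.79). Only the treated knockout library stood apart, since wild-type cells moved by 0.29 log2 on IFN-gamma and knockout cells by 2.11. Ifih1, which encodes MDA5, the sensor of long double-stranded RNA, was at 3.88, 9.24, 4.48 and 34.2 FPKM (ratio 3.70, interval 3.37 to 4.07). Dhx58 encodes LGP2, a related helicase without a signalling domain that tunes the other two, and was at 4.68, 8.88, 4.36 and 29.2 FPKM (ratio 3.29, interval 2.84 to 3.82). The treated wild-type library lay above both untreated libraries for Ifih1 and Dhx58, and the treated knockout library more than 3-fold above it. Eif2ak2 encodes PKR, the kinase that halts translation on binding double-stranded RNA, and was at 5.01, 19.1, 5.38 and 52.5 FPKM, 2.74 (2.54 to 2.96) times as abundant in knockout cells.

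The other sensors differed less on the FPKM + 1 scale, though by count ratio Ddx60 differed the most of all the sensors. Zbp1, a sensor of Z-form nucleic acid that can trigger cell death, was at 2.92, 245, 4.40 and 356 FPKM, the largest change of any member on the log2 FPKM + 1 scale, where the 2 genotypes responded by similar amounts (5.97 log2 in wild-type and 6.05 in knockout cells). Its knockout to wild-type count ratio was 1.62 (1.55 to 1.70) after IFN-gamma and 1.26 (0.799 to 2.01) before it. Adar, the enzyme that converts adenosine to inosine in double-stranded RNA, was at 11.6, 21.3, 13.3 and 41.2 FPKM, a ratio of 1.93 (1.81 to 2.06). Ddx60, a helicase described as a partner of RIG-I, stayed below 1 FPKM in the 4 peritoneal libraries, at 0.26, 0.19, 0.29 and 0.98, and its log2 difference of 0.73 on the FPKM + 1 scale stands beside a count ratio of 5.04 (2.75 to 9.96).

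After IL-4, the 7 sensors were again all higher in knockout cells, by a median log2 of 0.58, and none reached 2-fold. Ddx58 was at 18.4, 13.3, 19.8 and 24.3 FPKM in bone marrow-derived macrophages. The treated wild-type library lay below both untreated ones and the treated knockout library above them. The same order held for Dhx58 (21.5, 14.2, 22.7 and 27.3 FPKM), Ifih1 (8.51, 7.32, 8.96 and 11.4 FPKM), Eif2ak2 (15.0, 11.5, 14.5 and 17.7 FPKM) and Adar (25.9, 22.8, 28.4 and 32.8 FPKM). Zbp1 was at 15.2, 18.0, 14.5 and 33.2 FPKM, where the treated knockout library stood apart from the other 3, with a count ratio of 1.93 (1.72 to 2.16) to treated wild-type. Ddx60 was low but detected, at 1.77, 1.07, 1.65 and 2.09 FPKM (ratio 1.95, interval 1.58 to 2.42).

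The ISG15 system attaches a ubiquitin-like protein to other proteins, viral ones included. Isg15 itself, the modifier, was at 2.60, 26.5, 6.35 and 139.5 FPKM in peritoneal cells, already higher in untreated knockout cells (count ratio 2.40, interval 1.42 to 4.20), and its ratio after IFN-gamma was 5.25 (4.53 to 6.10). In bone marrow-derived cells Isg15 was at 17.4, 10.3, 18.4 and 31.7 FPKM, with untreated libraries close together and the largest log2 difference of any member after IL-4, 1.53 (ratio 3.07, interval 2.56 to 3.71). Usp18, the protease that removes ISG15 and also dampens type I interferon receptor signalling, was at 2.09, 9.39, 3.25 and 66.3 FPKM in peritoneal cells (ratio 7.06, interval 6.05 to 8.29). In bone marrow-derived cells it was at 12.7, 7.97, 12.8 and 17.2 FPKM (ratio 2.16, interval 1.88 to 2.49). For both genes the 2 treated libraries lay on opposite sides of the untreated pair after IL-4.

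The enzymes of conjugation differed less than the modifier and its protease. Herc6, the ligase that serves this system in the mouse, was at 3.47, 18.5, 4.17 and 37.4 FPKM in peritoneal cells (ratio 2.02, interval 1.87 to 2.17). Its bone marrow-derived values were 5.68, 4.11, 5.59 and 6.89 FPKM (ratio 1.68, interval 1.49 to 1.89). Uba7, the activating enzyme, was at 7.30, 15.4, 6.33 and 21.2 FPKM in peritoneal cells (ratio 1.38, interval 1.23 to 1.55). In the bone marrow-derived libraries its values were 24.1, 21.3, 27.9 and 29.7 FPKM (ratio 1.39, interval 1.30 to 1.49). In untreated bone marrow-derived cells Uba7 already had the largest excess in knockout cells of the 35, a log2 of 0.21.

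Direct antiviral effectors held both the largest and nearly the smallest differences after IFN-gamma, with a median log2 of 1.45 over 10 genes and 7 of them at least 2-fold higher in knockout cells. Mx1, a GTPase that blocks influenza viruses and that C57BL/6 mice carry in a deleted form, was at 0.11, 2.30, 0.17 and 29.1 FPKM in peritoneal macrophages, nearly silent without IFN-gamma in either genotype. Its knockout to wild-type count ratio after IFN-gamma, 12.7 (9.96 to 16.5), was the highest of the 35. Mx2, its neighbour on chromosome 16, was at 0.08, 0.89, 0.04 and 6.66 FPKM (ratio 7.47, interval 4.86 to 12.0). Rsad2 encodes viperin, which turns a nucleotide into a chain terminator of viral RNA synthesis, and Cmpk2, its neighbour on chromosome 12, encodes a nucleotide kinase. Rsad2 was at 3.69, 5.36, 5.33 and 48.4 FPKM (ratio 9.03, interval 7.87 to 10.4). Cmpk2 was at 1.83, 5.42, 1.70 and 35.4 FPKM (ratio 6.53, interval 5.61 to 7.63). Rsad2 moved little in wild-type cells on IFN-gamma (0.44 log2) and by 2.96 in knockout cells, so the difference between the genotypes was mostly in the treated pair. In untreated cells its ratio was 1.44 (1.17 to 1.79).

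Helz2, a helicase that acts as a transcriptional coactivator, was at 3.57, 7.27, 4.49 and 25.9 FPKM in peritoneal cells (ratio 3.56, interval 3.29 to 3.85). Samd9l, a translational restriction factor, was at 4.68, 11.9, 5.24 and 27.1 FPKM (ratio 2.27, interval 2.08 to 2.48). Isg20, an RNA exonuclease, was weakly expressed at 2.19, 1.40, 2.29 and 4.52 FPKM, and was one of the 2 members whose treated wild-type library was the lowest of the 4. Its count ratio was 3.22 (1.77 to 6.20), with a wide interval. Mov10, an RNA helicase, was at 5.35, 10.8, 4.74 and 17.6 FPKM, and its ratio of 1.63 (1.44 to 1.85) did not reach 2-fold.

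The 2 membrane-bound effectors stood out by their small differences. Bst2, or tetherin, which holds budding virions at the cell surface, was at 48.8, 186, 42.2 and 207 FPKM in peritoneal macrophages, a ratio of 1.11 (1.04 to 1.19) after IFN-gamma. Ifitm3, which blocks fusion of viruses with endosomal membranes, was the most abundant member at 546, 1270.1, 495 and 1491 FPKM (ratio 1.17, interval 1.14 to 1.21). Both were clearly induced by IFN-gamma in both genotypes, by 1.91 and 2.27 log2 for Bst2 and by 1.22 and 1.59 for Ifitm3, and both were slightly lower in untreated knockout cells (ratios 0.864, interval 0.752 to 0.992 and 0.907, interval 0.865 to 0.95).

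After IL-4, all 10 direct effectors were higher in knockout cells, by a median log2 of 0.69. Cmpk2 was at 8.46, 4.41, 9.59 and 11.4 FPKM in bone marrow-derived macrophages (ratio 2.59, interval 2.26 to 2.97). Rsad2 was at 7.79, 3.61, 6.89 and 7.73 FPKM (ratio 2.14, interval 1.86 to 2.47). For Rsad2 the gap came from the wild-type library, which lay below its untreated level (-0.93 log2), while the knockout library stayed level with the untreated ones. Mx1 was at 2.96, 1.18, 2.47 and 3.86 FPKM (ratio 3.31, interval 2.51 to 4.41) and Mx2 at 1.55, 0.66, 1.45 and 1.90 FPKM (ratio 2.88, interval 1.92 to 4.41), both from low levels. Helz2 was at 20.4, 11.9, 20.5 and 19.7 FPKM, and again the treated wild-type library was the one that stood apart. Bst2 (158, 157, 159 and 201 FPKM) and Ifitm3 (758, 690.3, 825 and 825 FPKM) had the smallest ratios of this group, 1.28 (1.22 to 1.35) and 1.19 (1.16 to 1.23). Samd9l was at 22.1, 16.8, 23.3 and 27.0 FPKM (ratio 1.60, interval 1.51 to 1.70). Mov10, at 11.6, 11.5, 12.3 and 16.7 FPKM, was highest in the treated knockout library, above 3 libraries that were close, and Isg20 stayed low, at 3.93, 2.69, 3.35 and 5.00 FPKM (ratio 1.83, interval 1.30 to 2.59).

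Nuclear body and Phf11 genes had the lowest median after IFN-gamma, a log2 of 0.60 over 5 genes, and the highest after IL-4, 0.93. Pml, which organises the nuclear bodies where antiviral proteins gather, was at 9.33, 45.2, 9.70 and 66.5 FPKM in peritoneal cells, induced in both genotypes and 1.47 (1.40 to 1.54) times as abundant in knockout cells. Sp100, another nuclear body protein, was at 16.9, 31.8, 16.6 and 90.0 FPKM, with the treated knockout library well above the other 3 (ratio 2.85, interval 2.64 to 3.07). Phf11a, Phf11b and Phf11d belong to a family of PHD-finger genes induced by interferon. Phf11b was at 5.33, 69.8, 5.07 and 89.0 FPKM, much higher after IFN-gamma in both genotypes and among the least different between genotypes (ratio 1.27, interval 1.17 to 1.39). Phf11a was at 2.27, 22.5, 3.18 and 34.6 FPKM (ratio 1.54, interval 1.34 to 1.77) and Phf11d at 2.67, 13.2, 4.25 and 28.6 FPKM (ratio 2.17, interval 1.92 to 2.45). After IL-4 all 3 were more than 2-fold apart in counts: Phf11d, at 4.16, 2.65, 3.37 and 6.28 FPKM, had a ratio of 2.36 (1.95 to 2.88), Phf11a one of 2.29 (1.70 to 3.11) and Phf11b one of 2.07 (1.71 to 2.52). Phf11a was at 3.52, 2.28, 3.90 and 5.26 FPKM, Phf11b at 9.84, 6.68, 10.5 and 13.8 and Sp100, the most abundant of this group in bone marrow-derived cells, at 47.2, 34.2, 51.8 and 64.4 (ratio 1.90, interval 1.79 to 2.01). For all of these the treated wild-type library was the lowest of the 4 and the treated knockout library the highest. Pml was at 13.5, 10.6, 13.8 and 13.8 FPKM in those cells, with the wild-type IL-4 library below 3 libraries that were level.

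The 9 remaining members are signalling partners and other interferon-induced genes, and 8 of them were higher in knockout cells after IFN-gamma. Rtp4, a chaperone of membrane receptors, was at 1.30, 10.3, 1.58 and 61.3 FPKM in peritoneal macrophages (ratio 5.95, interval 5.07 to 7.02) and already much more abundant in untreated bone marrow-derived cells, at 47.9, 30.7, 51.0 and 68.1 FPKM (ratio 2.22, interval 2.06 to 2.39). Ifi44 was not listed for untreated wild-type peritoneal cells, taken as 0, and was at 0, 1.08, 0.06 and 7.52 FPKM over the 4 libraries (ratio 6.96, interval 4.87 to 10.2). Xaf1, an antagonist of an inhibitor of apoptosis, was at 0.77, 4.73, 1.49 and 17.1 FPKM (ratio 3.67, interval 3.03 to 4.48). These 3 genes shared a low untreated level and a treated knockout library several times above the treated wild-type one. Ifi35 and Nmi, which bind each other, were at 12.5, 28.1, 13.7 and 59.5 FPKM and 4.56, 13.8, 5.13 and 27.5 FPKM, with ratios of 2.12 (1.88 to 2.39) and 1.98 (1.67 to 2.35).

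Epsti1 was the exception: it was at 6.09, 12.4, 3.73 and 12.0 FPKM in peritoneal macrophages, the 2 treated libraries were level (ratio 0.963, interval 0.803 to 1.15), and the untreated knockout library was the lowest of the 4 (ratio 0.618, interval 0.457 to 0.831). It was not an exception after IL-4, at 20.8, 17.9, 21.2 and 27.7 FPKM in bone marrow-derived cells (ratio 1.54, interval 1.40 to 1.70). Lgals3bp, a secreted galectin-binding glycoprotein, was at 111, 387, 99.2 and 573 FPKM in peritoneal cells (ratio 1.48, interval 1.44 to 1.52). Tor3a, an ATPase of the torsin family, was at 40.0, 91.5, 43.6 and 143 FPKM (ratio 1.57, interval 1.5 to 1.64). Ifi27l2a was at 8.29, 25.5, 8.84 and 41.3 FPKM (ratio 1.64, interval 1.31 to 2.07). All 3 were induced in both genotypes and stayed under 2-fold between them. After IL-4 the smallest differences of the 35 were those of Ifi27l2a, at 236, 229, 201 and 250.3 FPKM, and Lgals3bp, at 498, 483, 493 and 562 FPKM, with ratios of 1.09 (1.03 to 1.16) and 1.16 (1.14 to 1.19). Ifi44, at 3.22, 1.74, 3.39 and 4.99 FPKM, and Xaf1, at 7.69, 5.01, 7.39 and 9.56 FPKM, had ratios of 2.89 (2.30 to 3.64) and 1.89 (1.63 to 2.2), and their treated libraries lay on opposite sides of the untreated pair. Ifi35 was at 18.4, 17.2, 20.1 and 29.2 FPKM in bone marrow-derived cells (ratio 1.70, interval 1.52 to 1.91). Nmi and Tor3a were higher after IL-4 than before it in both genotypes, Nmi at 5.39, 6.21, 6.25 and 8.04 FPKM and Tor3a at 26.6, 36.1, 28.2 and 46.4 FPKM, so the direction of the IL-4 response did not divide the genotypes for these genes.

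The same values read along the cytokine instead of the genotype show 2 different patterns. After IFN-gamma 23 members were at least 2-fold higher than before it in wild-type cells (background 5.94%) and 33 in knockout cells (7.27%), with median log2 responses of 1.19 and 2.50. The 23 were also at least 2-fold higher in the knockout response, and the 10 that passed 2-fold on this scale in the knockout response alone were Ddx58, Dhx58, Adar, Uba7, Mx2, Rsad2, Mov10, Helz2, Sp100 and Epsti1. Ddx60 and Isg20 reached it in neither. This division depends on the scale: by count ratio 28 members passed 2-fold in wild-type and 34 in knockout cells, and the 6 that passed in knockout cells alone were Ddx58, Dhx58, Ddx60, Adar, Rsad2 and Sp100. At a pseudocount of 5 the wild-type count was 15. The knockout response exceeded the wild-type response for all 35 members (background 4215 of 10670 genes), by a median log2 of 0.94 (-0.06 over those genes). The excess was at least 2-fold for 16 members (background 1.51%). It ranged from 0.08 for Zbp1 to 3.11 for Mx1. IL-4, in contrast, was followed by a lower value in wild-type cells for 32 members (background 57.6%), with a median log2 of -0.42 and 9 at least 1.5-fold lower (background 2.14%), and by a higher value in knockout cells for 33 (46.1%), with a median of 0.32 and 4 at least 1.5-fold higher (3.15%). For 30 members the wild-type response was below 0 and the knockout response above 0 (background 15%). Some of these values were level, such as -0.01 for Mov10 in wild-type and 0.0 for Pml in knockout cells. In the wild-type response the count interval lay below 1 for 28 members (3043 of 10906 genes) and above 1 for 1 (2122). In the knockout response it lay above 1 for 28 (2232) and below 1 for 0 (2547). Zbp1, Nmi and Tor3a were above 0 in both genotypes and Ifitm3 and Helz2 below 0 in both. The knockout response of Ifitm3 was level, with a count ratio of 1.0 (0.973 to 1.03). The 2 responses differed by at least 1.5-fold for 22 members (background 1.29%), with a median log2 difference of 0.68.

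**Figure D3:**
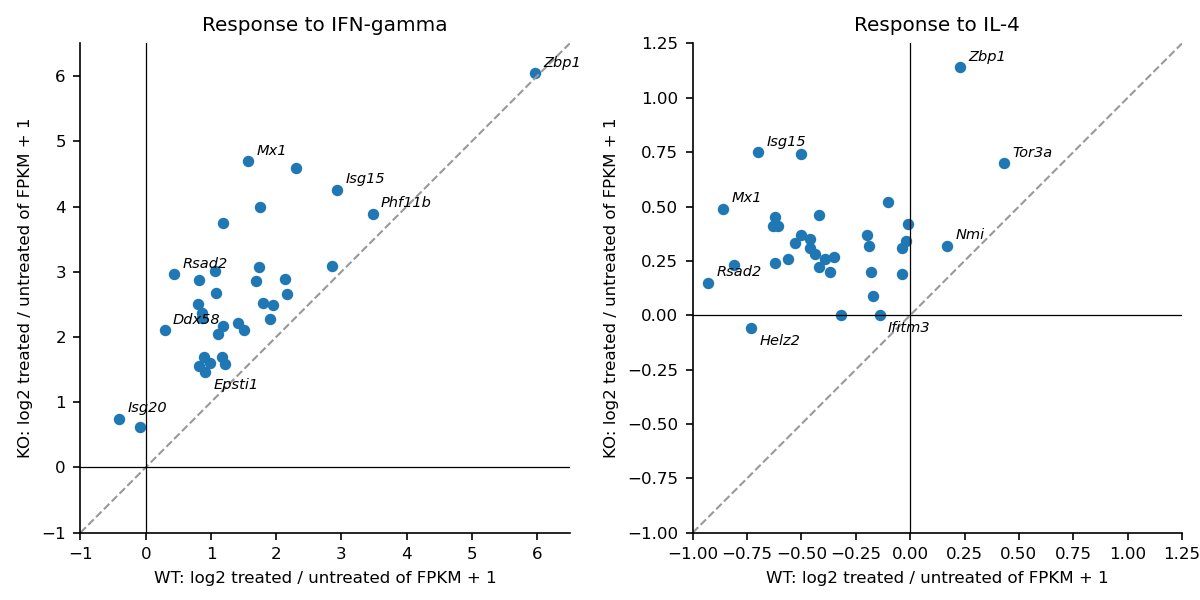
Response of each member to IFN-gamma in peritoneal macrophages (left) and to IL-4 in bone marrow-derived macrophages (right), as log2 of treated over untreated FPKM + 1 in wild-type (horizontal) against knockout cells (vertical), 1 pair of libraries per axis; the dashed line marks equal responses. All 35 points lie above the line in the left panel, and 30 lie in the upper left corner region of the right panel, lower after IL-4 in wild-type and higher in knockout cells.

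Over both cytokines, 34 members were higher in knockout than in wild-type cells after each, against 26.2% of the 10073 genes that averaged 1 FPKM or more in both cell types. At least 1.5-fold after each were 19 (background 0.576%), and at least 2-fold after IFN-gamma and 1.5-fold after IL-4 were 17 (0.417%). The cell types, the exposure times and the depths differ between the 2 comparisons, so their sizes are given side by side only. Mx1 differed by a log2 of 3.19 after IFN-gamma and 1.16 after IL-4, Rsad2 by 2.96 and 0.92, Usp18 by 2.70 and 1.02, Rtp4 by 2.46 and 1.12 and Isg15 by 2.35 and 1.53. At the other end, Bst2 differed by 0.16 and 0.36 and Ifitm3 by 0.23 and 0.26. Epsti1, Phf11b and Zbp1 were under 1.5-fold in FPKM + 1 after IFN-gamma, though Zbp1 was not by its count ratio, with log2 differences of -0.04, 0.35 and 0.54, and reached 0.60, 0.95 and 0.85 after IL-4.

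**Figure D4:**
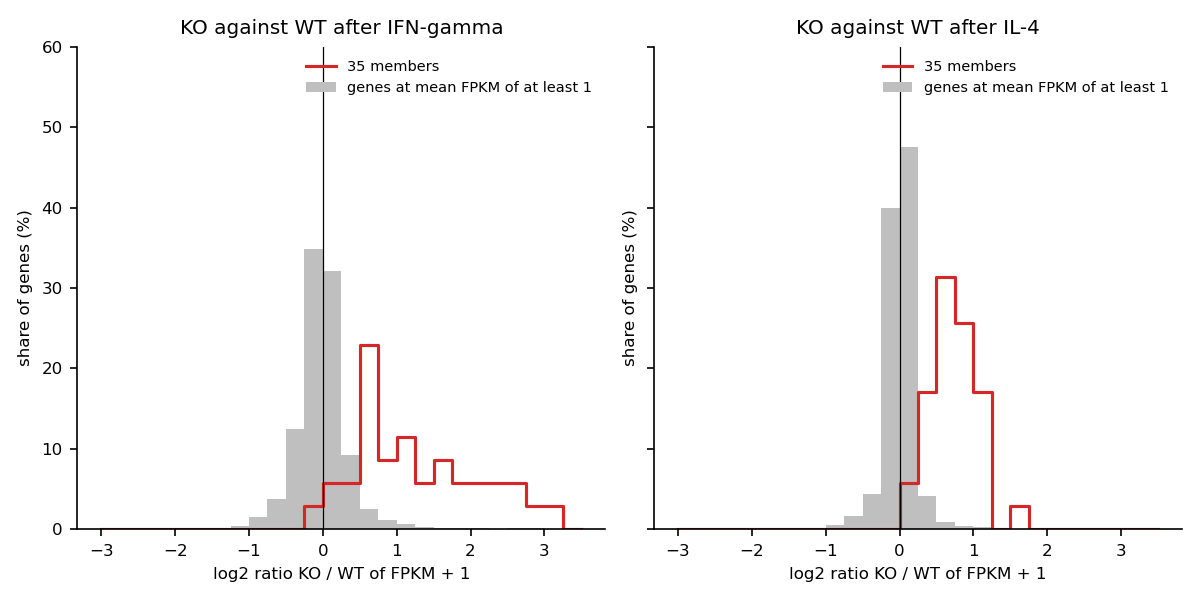
Share of genes (%) per bin of the log2 ratio of FPKM + 1, knockout over wild-type, after IFN-gamma in peritoneal macrophages (left) and after IL-4 in bone marrow-derived macrophages (right), 1 pair of libraries each; grey bars are the genes that averaged 1 FPKM or more, the red line the 35 members, and values beyond the axis stand in the end bins. The members are centred at 1.06 and 0.70, the genes at -0.02 and 0.01.

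Replicates are lacking within each combination, so the tests that the design allows are of terms in edgeR's quasi-likelihood fit of genotype plus treatment. It has 1 residual degree of freedom per cell type. The fit weighs libraries by their counts, so a term is not a plain average over the other factor. A genotype difference that changes with treatment adds to the residual spread. By that fit with Benjamini-Hochberg adjustment over all genes, IFN-gamma raised 32 of 35 members and lowered 0 in peritoneal macrophages (background 17.2% of 12052 genes raised and 14.9% lowered). Zbp1 rose by a log2 fold change of 6.68 (SE 0.16, edgeR adjusted p = 8.64e-06) and Phf11b by 4.02 (SE 0.16, edgeR adjusted p = 4.03e-05). Ddx58 (edgeR adjusted p = 0.0512), Ddx60 (0.2) and Isg20 (0.726) did not pass. The IL-4 term of the same edgeR fit called 2 of 35 members higher, Tor3a (0.62, SE 0.07, adjusted p = 0.000105) and Zbp1 (0.68, SE 0.16, adjusted p = 0.0165), and 0 lower (background 12% of 12879 genes raised and 9.23% lowered).

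Over both treatments together, the genotype term of the edgeR fit called none of the 35 members in peritoneal macrophages (background 0.0249% raised). At an unadjusted p under 0.05 there were 23, all higher in knockout cells (background 6.86% higher). DESeq2 gave an adjusted p for 27 of the 35 members and called 1 higher, against 18 of 6311 genes. Of 34 members tested by limma-trend 0 were called (0 of 10670 genes raised). With RLE scaling edgeR called 3 (12 of 12052 genes raised) and with no filter on low counts 4 (26 of 16626). The lowest edgeR adjusted p was 0.0766, for Ifi44 (log2 2.83, SE 0.29) and Mx1 (3.53, SE 0.37). Both were nearly absent from untreated cells, with wild-type and knockout counts of 0 and 2 for Ifi44 and 4 and 5 for Mx1. Their terms therefore rest largely on the treated pair of libraries. In bone marrow-derived macrophages the edgeR genotype term called 2 members higher in knockout cells, Uba7 (0.35, SE 0.07, adjusted p = 0.0146) and Adar (0.33, SE 0.08, adjusted p = 0.0397), against a background of 1.51%, while 27 were higher at an unadjusted p under 0.05 (background 7.42%). DESeq2 gave an adjusted p for 30 of the 35 members and called 0 (47 of 8964 genes raised). By limma-trend 0 members were called (63 of 10906 genes raised), and by edgeR with no filter on low counts 31 (527 of 17395). Whether the genotype term differed between the cell types was tested in an edgeR fit of all 8 libraries. It called 0 members (background 0.09% of 13340 genes), and 8 had an unadjusted p under 0.05, all with the larger difference in peritoneal cells (background 7.77%). DESeq2 called 0 of the 33 members with an adjusted p (44 of 9669 genes higher) and limma-trend 0 (1 of 10994). Mx1 had the lowest edgeR adjusted p, 0.159, for a difference of 2.91 (SE 0.72). A p that misses the threshold here does not show that the genotypes were alike.

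Other genes of the interferon pathway are given by list. Of 9 interferon genes named, 2 were listed: Ifnb1 had counts of 0, 0, 0 and 3 in the peritoneal libraries and 2, 0, 0 and 6 in the bone marrow-derived ones. Ifna5 was at 0.09 FPKM in the knockout IL-4 library and was not listed elsewhere, so neither passed a count of 6. Receptors, kinases and inhibitors had median log2 differences of 0.07 after IFN-gamma and -0.02 after IL-4. Of these 9, 0 were at least 2-fold apart after either cytokine. The background is also low, 1.56% after IFN-gamma and 0.385% after IL-4 at least 2-fold higher, so that count says little. After IFN-gamma the 9 ranged from -0.50 for Ifngr1 to 0.42 for Jak2. The 13 classical IFN-gamma targets were strongly induced in peritoneal cells, with a median genotype difference of 0.06 and a range from -0.31 for Psmb8 to 0.54 for Gbp3. None was at least 2-fold higher (background 1.56%). Their count interval lay above 1 for 6 (background 17.4%) and below 1 for 2 (2444 of 10670 genes), so some of them differed by more than counting error. Gbp2, a guanylate-binding protein, was at 6.53, 3400.1, 13.0 and 3428 FPKM, and Ciita, the activator of class II genes, at 0.21, 58.9, 0.21 and 61.6 FPKM. After IL-4 this list had a median of 0.37, with 1 gene, Gbp2, at least 2-fold higher (background 0.385%) from a low level (3.32, 2.79, 4.51 and 7.06 FPKM). Of the 13 targets, 5 were at least 1.5-fold higher in knockout cells after IL-4 (background 1.2%). The count interval lay above 1 for 8 of the 13 (15.9%) and below 1 for 2 (1472 of 10906 genes).

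The 12 Ifit and Oas genes, antiviral proteins that bind RNA or are activated by it, differed in the same direction as the members. After IFN-gamma 12 of 12 were higher in knockout cells (background 4921 of 10670 genes) and 11 at least 2-fold (1.56%), with a median log2 of 2.12. After IL-4 12 of 12 were higher (5758 of 10906 genes) and 7 at least 2-fold (0.385%), with a median of 1.03. Among 7 transcription factors the median was 0.19 after IFN-gamma, and 2 were at least 2-fold higher (background 1.56%), Irf7 and, at the limit, Stat2. Irf7, which drives interferon and antiviral genes, was at 4.30, 26.8, 3.26 and 133 FPKM in peritoneal cells and at 83.5, 83.2, 75.2 and 137 FPKM in bone marrow-derived cells. Stat2, a transcription factor of type I interferon signalling, was at 6.02, 40.6, 6.24 and 82.5 FPKM in peritoneal cells. In bone marrow-derived cells it was at 30.2, 25.04, 30.7 and 41.7 FPKM, lower after IL-4 in wild-type and higher in knockout cells. The 13 adaptors and kinases of sensing pathways had medians of 0.32 after IFN-gamma and 0.12 after IL-4. At least 2-fold were 0 of them after either cytokine, where the background was 1.56% and 0.385% higher. By the edgeR genotype term, 1 of 11 tested Ifit and Oas genes was called in peritoneal cells (background 0.0249% raised) and 2 of 12 in bone marrow-derived cells (1.51%). Of the 13 IFN-gamma targets 2 were called in bone marrow-derived cells. All of these were higher in knockout cells. The receptor, transcription factor and adaptor lists had 0 called in either cell type (adjusted p from 0.0548 to 0.979).

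**Figure D5:**
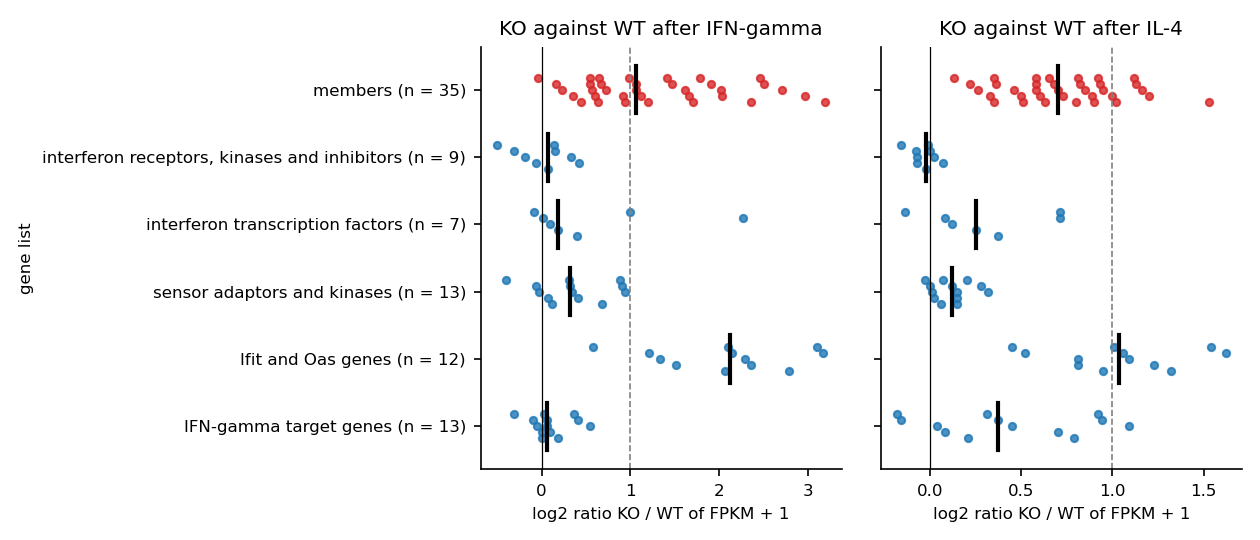
Log2 ratio of FPKM + 1, knockout over wild-type, for each gene (points) of the members and of 5 other lists of the interferon pathway, after IFN-gamma in peritoneal macrophages (left) and after IL-4 in bone marrow-derived macrophages (right), from 1 pair of libraries each; black bars are medians and the dashed line marks 2-fold. The members and the Ifit and Oas genes lie furthest to the right, with medians of 1.06 and 2.12 after IFN-gamma and 0.70 and 1.03 after IL-4, and the receptor list lies around 0.

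Markers of other cells moved with some libraries. In the 4 peritoneal libraries the summed level of 8 macrophage markers was 10201, 7442, 8533 and 6090.4 FPKM, that of 5 fibroblast and mesothelium markers 55.9, 47.5, 53.2 and 33.0, and that of 6 T and NK cell markers 0.40, 1.62, 0.85 and 3.27. Cd3d was at 0.22, 1.48, 0.67 and 3.20 FPKM of these sums, which moved with this gene alone. Cd3g, Ncr1 and Nkg7 were at 0 in these libraries, Cd3e was at 0.06, 0.06, 0.06 and 0 FPKM and Klrb1c at 0.12, 0.08, 0.12 and 0.07. The macrophage sum was mostly Lyz2 and Cd68. After IFN-gamma, Fcgr1 was at 62.3 FPKM in wild-type and 25.2 in knockout cells, Csf1r at 118.3 and 65.4 and Adgre1 at 48.9 and 31.8. Mertk (55.8 and 85.0) and Cd14 (15.9 and 18.2) were higher in knockout cells. In bone marrow-derived libraries the fibroblast list was at 244.2, 230.2, 126.7 and 108 FPKM, lower in both knockout libraries. The part of these cells in the differences between genotypes was not tested. Markers of plasmacytoid dendritic cells, a cell type known for interferon production, summed to 1.03 to 1.85 FPKM in peritoneal and 0.02 to 0.23 in bone marrow-derived libraries, with 1 to 4 of 5 at 0; Siglech, the most specific of them, was at no more than 0.1 FPKM in any library. The summed B cell list was at 3.40 to 5.67 FPKM in peritoneal and 0.82 to 1.20 in bone marrow-derived libraries, the neutrophil list at 2.77 to 9.83 over all 8, the list of eosinophils, basophils and mast cells at 0.37 to 10.4, and conventional dendritic cells at 0.32 to 1.34.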

How the data were processed

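The authors deposited 1 gene table per library with an expected count and an FPKM value per gene; per the submitters' processing notes the tools were Bowtie2 2.2.5 and RSEM and the build mm10, and no strand setting appears in the sources. Genes are Entrez identifiers, and a gene absent from a library's table was taken as 0. The deposited FPKM values gave the log2 ratios (pseudocount 1), and deposited expected counts, divided by the library total, gave ratios with 95% Clopper-Pearson intervals. Expected counts were rounded to whole numbers for edgeR 4.0.16 (TMM, quasi-likelihood fit of genotype plus treatment, R 4.3.3), with DESeq2 1.42.0 and limma 3.58.1 as alternatives. The fit and the ratios were checked on simulated data. For the fit these held changes on treatment only, with a smaller spread than edgeR estimated in the peritoneal libraries. The genotype terms were therefore not checked against a known genotype difference. The biological coefficient of variation that edgeR estimated was 10.4% in peritoneal, 4.57% in bone marrow-derived and 7.44% in all libraries. Coordinates and promoters are RefSeq GRCm38.p6, the assembly of mm10, and 18076 of 18125 identifiers were found in its gene table. All members are named with values; other genes come from the pathway lists, and promoters were chosen by the rule stated beside them. The members, lists and rules were chosen with earlier results of these data known. A gene of the transcription factor list is not reported here.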

Additional observations from a re-analysis of the deposited data

How the results depend on the processing

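Each group held 1 library, so no library could be left out. No paired analysis was made, because the labels do not say which libraries share an animal. None of the 140 values that the 35 members took under 4 other scalings or pseudocounts changed sign, for knockout against wild-type after IFN-gamma or after IL-4. Of the summary values, 179 kept within the limits set and 31 moved, and of the values of single members 228 kept and 52 moved. At a pseudocount of 5, the medians over members fell to 0.81 and 1.86 for the wild-type and knockout responses to IFN-gamma, to 0.51 for knockout against wild-type after IL-4, to 0.23 for the knockout response to IL-4 and to 0.49 for the difference of the IL-4 responses. Members at least 2-fold changed then numbered 15 in the wild-type IFN-gamma response, 2 between genotypes after IL-4, 1 in the difference of the IL-4 responses (8 as reported), 0 in the knockout IL-4 response (1 as reported) and 0 between genotypes in untreated peritoneal cells, where median scaling and TMM-scaled CPM also gave 0. At a pseudocount of 0.1, 11 members were at least 2-fold higher in knockout cells after IL-4 and 3 were 2-fold lower in wild-type cells on IL-4 (2 with TMM-scaled CPM, 0 as reported). With a limit of 1.5-fold these counts were 22 between genotypes after IL-4, 9 lower in the wild-type IL-4 response, 4 higher in the knockout one, and 26 and 22 for the differences of the IFN-gamma and IL-4 responses. The median in untreated bone marrow-derived cells was 0.10 with TMM-scaled CPM. The median gene moved by -0.107 in the knockout response to IFN-gamma and by 0.012 under TMM scaling. The tests depended more on their settings. Members called by the genotype term in peritoneal cells numbered 1 with DESeq2, 3 with RLE scaling and 4 with no filter, and in bone marrow-derived cells 0 with DESeq2 and limma-trend and 31 with no filter. Their counts over all genes are given with the tests above. The IL-4 term called 1 higher with DESeq2 (667 of 11662 genes) and with limma-trend (997 of 10906). With no filter it called 7 higher and 2 lower (1781 and 1464 of 17395 genes). The cause was not tested.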
